A study of Homo sapiens with 4 samples.

Results

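AK1, AK3, AK4 and AK6 are 4 of the 15357 genes listed in the RNA-seq tables of RKO cells, a human colon carcinoma line. They were taken by gene symbol, and all 4 passed the filter on low counts that left 11955 genes tested. Messenger RNA captured on oligo-dT beads was sequenced from 2 samples of cells labelled vector, the control, and 2 of cells labelled shCHD7_2. The protocol describes stable infection with lentivirus carrying a control or a CHD7 short hairpin RNA, while the sample titles call the control vector, so whether the control cells carried an empty vector or a control hairpin is not settled. A single CHD7 hairpin was sequenced, so an effect of CHD7 loss and another effect of that hairpin cannot be told apart. The labels do not say that replicates were separate cultures, so the p-values measure the spread between these samples, which may be technical. The question was whether the fall of AK4 under CHD7 knockdown was shared by the other adenylate kinases or offset by them.

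Adenylate kinases move a phosphate group between adenine nucleotides, so that a pair of ADP molecules becomes ATP and AMP, or the reverse. They keep the adenine nucleotide pool in balance, and the AMP they form is read by AMPK, the energy-sensing kinase. AK1 works in the cytosol, AK3 and AK4 in the mitochondrial matrix, and AK6 mainly in the nucleus. AK3 takes GTP rather than ATP as its preferred phosphate donor. AK4 is the closest relative of AK3 and is a known target gene of the hypoxia factor HIF-1. CHD7 is an ATP-dependent chromatin remodeller.

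The 4 genes share the P-loop, the glycine-rich stretch near the start of the protein that holds the phosphates of the nucleotide. The coding bases of that stretch are shown because they tie the family together and because AK3 and AK4 are most alike there. Each line is a window of 30 bases read 5′ to 3′ on the coding strand, with the P-loop codons in capitals.
AK4: GGGCCGCCCGGCTCGGGCAAGggcaccgtg
AK3: GGGGCCCCGGGCTCGGGCAAGggcaccgtg
AK1: GGTGGGCCTGGCTCAGGGAAGggcacccag
AK6: GGTACACCAGGGGTTGGAAAAaccacacta
On GRCh38 the AK4 window lay at chr1:65148441-65148470 on the plus strand, in exon 2. That of AK3 lay at chr9:4741019-4741048 on the minus strand, in exon 1. The windows of AK1 (chr9:127872825-127873026, minus strand) and AK6 (chr5:69366567-69369463, minus strand) each crossed an exon junction. AK3 and AK4 had 27 of the 30 bases in common, AK1 had 22 in common with either, and AK6 had 15 in common with each of the others. The windows were found by a Walker A pattern of codons (glycine, any pair, glycine, any, glycine, then lysine or asparagine), read in frame on the coding strand, which 4.79% of 11704 tested genes with a coding sequence held. Over their whole coding sequences AK3 and AK4 were identical at 428 of 667 aligned bases (64.2%), and their longest shared run was 22 bases.

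The estimated counts summed to between 15734679 and 16068650 per sample. CHD7, the targeted gene, was at 85.4 and 91.0 CPM (counts scaled to library size) in vector and at 55.5 and 50.1 CPM in shCHD7_2, a log2 fold change of -0.74 (SE 0.088, adjusted p = 4.2e-06, edgeR). Of 9 colon epithelial markers 7 were listed. EPCAM, KRT8, KRT18 and CDX2 were measured and none of them passed the test, CDH1, KRT20 and LGALS4 had at most 1 count in any sample, and the summed FPKM of the markers was 75.3 to 81.2 in vector and 81.6 to 90.3 in shCHD7_2. Of 9 fibroblast markers 4 were listed, with a summed FPKM of 1.34 to 1.53 in vector and 2.31 to 2.76 in shCHD7_2, and COL1A1 had at most 7 counts. ACTA2, a smooth muscle actin that cultured cells can also express, was higher in shCHD7_2 (log2 fold change 0.82, adjusted p = 0.0258), but not past the test in DESeq2 (0.250) and 5 other settings of 14. Of 5 immune markers 3 were listed, with a summed FPKM of 495 to 530 in vector and 602 to 612 in shCHD7_2. Nearly all of it was CD68, a lysosomal protein found in many cell types, which did not pass the test (0.20, adjusted p = 0.0624). LYZ and CD79A had at most 7.29 estimated counts in any sample. The part of these markers in the results below was not tested.

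AK4 was the only one of the 4 genes that was lower in shCHD7_2. AK1 was higher by less than 1.5-fold, and neither AK3 nor AK6 passed the test. A gene passed the test at an adjusted p under 0.05 in edgeR's quasi-likelihood test and was called where it also differed by at least 1.5-fold. Of the 4 members 1 was called, as lower, where 2.88% of all genes tested were called in either direction and 1.37% as lower. Passing the test were 2 of the 4, where 11.5% of all genes did, 6.54% as lower and 4.94% as higher. A log2 fold change below 0 was found in 1 of the 4 and in 49.9% of all genes. In each of the 4 genes the groups did not overlap in FPKM (fragments per kilobase of transcript, scaled to library size) or in CPM, but the same held for 54.5% and 53.7% of all genes tested.

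**Figure D1:**
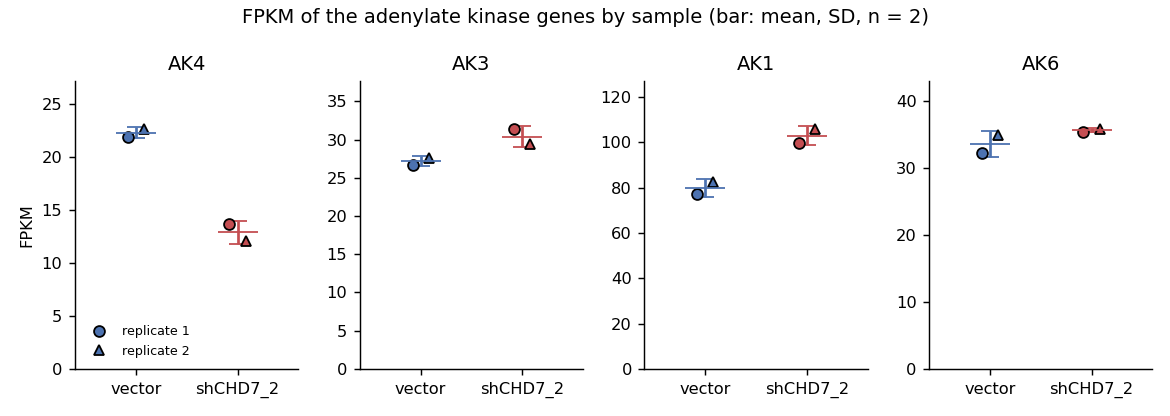
FPKM of AK4, AK3, AK1 and AK6 in each sample, with a separate vertical axis per gene that starts at 0. Circles and triangles are replicates 1 and 2, horizontal lines are group means and bars are SDs (n = 2). AK4 sat at 21.9 and 22.7 in vector and at 13.7 and 12.1 in shCHD7_2, while the other 3 genes sat higher in both shCHD7_2 samples.

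AK4 (chr1:65147549-65232145, plus strand) was at 21.9 and 22.7 FPKM in vector and at 13.7 and 12.1 FPKM in shCHD7_2. Both knockdown samples lay well under both controls, and the gap between the groups was far wider than the gap within either. The group means were 22.3 ± 0.516 and 12.9 ± 1.12 FPKM (SD, n = 2). The estimated counts behind these values were 2316 and 2442 in vector and 1444 and 1286 in shCHD7_2, and they were whole numbers in every sample, as when no read had to be divided between genes. The log2 fold change was -0.83 (SE 0.083), a fold of 0.562 (95% interval 0.499 to 0.633), with an adjusted p of 3.0e-07. Of all genes tested, 0.644% had a lower log2 fold change. In edgeR AK4 fell by 43.8% and CHD7 itself by 40.1%. The fall of CHD7 varied more with the setting, with log2 fold changes from -0.82 to -0.51 over 14 others. The adjusted p of CHD7 was over 0.05 in 1 of the 14. Leaving out each sample in turn gave CHD7 -0.82 to -0.67. In bulk RNA, fewer cells expressing a gene and less RNA per cell cannot be told apart. Over the 14 other settings the log2 fold change of AK4 lay between -0.92 and -0.75. Its adjusted p was over 0.05 in 1 of them, limma on log2(FPKM + 1) without a filter (0.0637).

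AK3 (chr9:4709559-4742043, minus strand), the other matrix enzyme, was at 26.7 and 27.7 FPKM in vector and at 31.4 and 29.4 FPKM in shCHD7_2. Its counts were also whole in every sample, at 1713 and 1798 in vector and 2014 and 1901 in shCHD7_2. The gap between the groups was narrower than the gap between the knockdown samples. The log2 fold change was 0.13 (SE 0.080, 95% interval -0.04 to 0.29, adjusted p = 0.341), and the adjusted p stayed over 0.05 in all 14 other settings. The interval left room for no change and for a rise well short of 1.5-fold.

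AK1 (chr9:127866480-127877743, minus strand), the cytosolic enzyme, was at 77.1 and 82.5 FPKM in vector and at 99.8 and 106 FPKM in shCHD7_2. It had the highest level of the 4 genes in every sample, and its knockdown samples lay above its controls. The log2 fold change was 0.33 (SE 0.083, 95% interval 0.16 to 0.50), or 25.4% more, with an adjusted p of 0.0107. Of all genes tested, 7.88% had a higher log2 fold change and 4.94% passed the test in that direction. The rise was less secure than the fall of AK4, because the adjusted p went over 0.05 in 6 of 14 other settings. Those were the fit without a filter on low counts (0.103), limma on log2(FPKM + 1) without a filter (0.107), the replicate block (0.0951), and the fits without vector replicate 1 (0.110), vector replicate 2 (0.129) or shCHD7_2 replicate 2 (0.0670). Its log2 fold change stayed between 0.26 and 0.38 throughout.

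AK6 (chr5:69350984-69370013, minus strand), the nuclear member, was at 32.2 and 34.9 FPKM in vector and at 35.4 and 35.8 FPKM in shCHD7_2. The lowest knockdown sample exceeded the highest control by less than the controls differed from each other. The log2 fold change was 0.07 (SE 0.098, 95% interval -0.13 to 0.27, adjusted p = 0.717). The order of the levels per length was AK1, AK6, AK3 and AK4 in both groups, and the sample ranges of neighbours in that order did not overlap within either group. AK4 was thus the lowest of the 4 before the knockdown as well as after it.

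**Figure D2:**
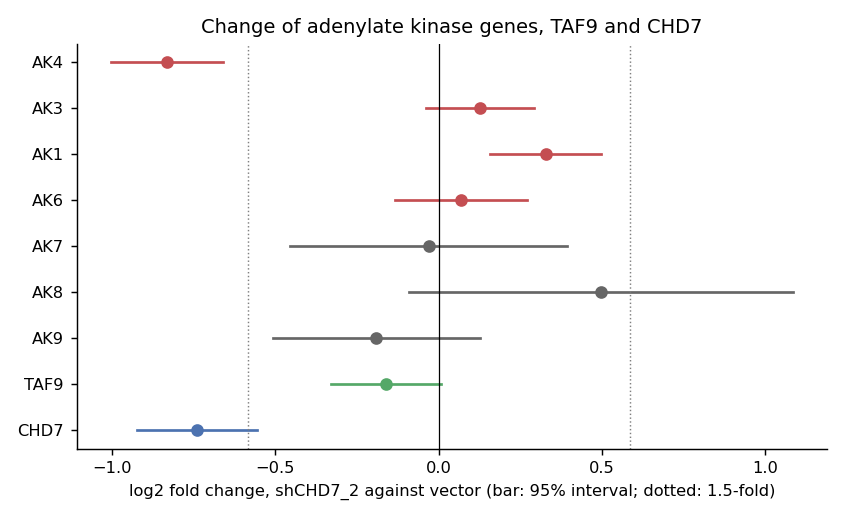
Log2 fold change of shCHD7_2 against vector from edgeR for the 4 genes (red), AK7, AK8 and AK9 (grey), TAF9, which overlaps AK6 (green), and CHD7 (blue). Bars are 95% intervals and dotted lines mark 1.5-fold. AK4 at -0.83 lies apart from the other adenylate kinases drawn, whose estimates run from -0.19 to 0.50.

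The fall of AK4 was not shared by the other 3 members. The change of AK4 was 1.16 log2 units below that of AK1 (a difference of -1.16, 95% interval -1.40 to -0.92). It was -0.96 relative to AK3 (-1.20 to -0.72) and -0.90 relative to AK6 (-1.17 to -0.63). These intervals combine the standard errors of the genes as if they were independent. Within samples, the FPKM of AK4 divided by that of AK3 was 0.821 and 0.819 in vector and 0.436 and 0.412 in shCHD7_2. The ratio barely varied within vector and was lower in both knockdown samples. AK4 over AK1 went from 0.284 and 0.275 to 0.137 and 0.114, and AK4 over AK6 from 0.681 and 0.648 to 0.386 and 0.338. For each ratio the exact two-sided permutation p was 0.333, the smallest that 2 samples against 2 allow.

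The summed FPKM of the 4 genes was not lower in shCHD7_2. It was 158 and 168 in vector and 180.3 and 183 in shCHD7_2, a mean difference of 11.6% (exact permutation p = 0.333). AK1 contributed 23.0 FPKM to that difference, AK3 3.22 and AK6 2.08, while AK4 fell by 9.395. Most of the gain was therefore AK1, the member whose rise depended on the setting. The direction also depended on the unit. The same genes summed as CPM, in which long transcripts weigh more, were at 377 and 387 in vector and at 353 and 347 in shCHD7_2. That was a difference of -8.43%. The 2 units differ in scaling too. Over all genes the median log2 fold change was 0.042 in limma on log2(FPKM + 0.1) and 0.00056 in edgeR. Transcript levels per length are not enzyme amounts or activities, and protein was not analysed here.

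The matrix members alone gave the opposite picture. AK3 and AK4 together were at 48.6 and 50.3 FPKM in vector and at 45.1 and 41.5 FPKM in shCHD7_2, a difference of -12.5% (exact permutation p = 0.333). AK3 was 3.22 FPKM above its control mean, without passing the test, while AK4 fell by 9.395 FPKM. AK4 made up 45.1% ± 0.039 of that pair in vector (SD, n = 2) and 30.4% and 29.2% in shCHD7_2. Of the 4 genes it made up 13.9% and 13.5% in vector and 7.59% and 6.61% in shCHD7_2. The share of AK1 went from 48.8% and 49.2% to 55.4% and 57.8% (exact permutation p = 0.333).

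AK7, AK8 and AK9, further adenylate kinases at low levels in these cells, were tested and none passed the test. AK9 was at -0.19 on the log2 scale (adjusted p = 0.473), AK7 at -0.03 (0.947) and AK8 at 0.50 (0.285), the last from 21 to 41 counts per sample. AK5, a brain form, had at most 1 count in any sample and was not tested. The FPKM of these 4 genes summed to 5.59 to 6.06 in vector and to 5.92 in each shCHD7_2 sample.

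The length over which reads were normalized was checked, because a shift between long and short isoforms would alter FPKM without altering counts. For an implied length, counts scaled to the raw total of each library, without the further scaling used for CPM, were divided by FPKM. The implied length of AK4 was 6.72 and 6.71 kb in vector and 6.70 and 6.74 kb in shCHD7_2. The groups overlapped, though when scaled to the median gene they lay just apart, at 6.707 and 6.710 kb in vector and 6.711 and 6.738 kb in shCHD7_2. The lengths were near those of the long coding transcripts of AK4, 6836, 6887 and 6998 bases in GENCODE 29, rather than that of the short coding one, 1335 bases. AK3 was at 4.05 to 4.10 kb, AK1 at 1.07 to 1.14 kb and AK6 at 0.821 to 0.850 kb over all samples. Scaled to the median gene, the log2 ratio of shCHD7_2 to vector was at most 0.027 in size for the 4 genes, in AK6. Over 10779 genes its size had a median of 0.0053 and a 95th percentile of 0.068. The ratio of AK6 was larger in size than that of 84.1% of these genes.

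AK6 and AK1 overlap other genes. TAF9, a subunit of the TFIID complex that starts transcription, overlaps AK6 on the same strand for 5271 bases, and the estimated counts of AK6 were not whole in any sample. TAF9 was at 104 and 106 CPM in vector and at 94.5 and 92.8 CPM in shCHD7_2 (log2 fold change -0.16, adjusted p = 0.214), so AK6 and TAF9 pointed different ways. Their summed CPM was 131 and 135 in vector and 124 and 123 in shCHD7_2. RAD17, a DNA damage checkpoint gene on the other strand, overlaps AK6 for 721 bases (-0.10, adjusted p = 0.501). The strand setting of the library is not stated. The counts of RAD17 were whole in every sample, at 812 and 902 in vector and 808 and 821 in shCHD7_2. AK1 is overlapped for 9894 bases by the coding gene model AL157935.2 and contains MIR4672, and its counts were not whole in any sample. Neither symbol was among the genes listed, so the gene that shares reads with AK1 was not identified. Values of AK1 and AK6 are therefore less certain than those of AK3 and AK4. AK4 contains only the pseudogene RPS29P7, and no annotated gene overlaps AK3.

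The genes beside AK4 did not pass the test. Before it on chromosome 1 lay JAK1, a cytokine receptor kinase (log2 fold change -0.21, adjusted p = 0.0815), RAVER2 (-0.24, 0.0812) and CACHD1 (-0.17, 0.382). After it lay DNAJC6, 16074 bases away (0.14, 0.383), LEPROT (-0.06, 0.746) and LEPR, the leptin receptor (-0.80, 0.117). LEPR was as low in size as AK4 but at 2.06 CPM or less in every sample. The tested genes whose pattern over the 4 samples was most like that of AK4, by Euclidean distance of mean-centred log2 CPM, were HAS2, which makes hyaluronan (distance 0.026), CYP4V2 (0.037), STK38L (0.063), ADAM9 (0.069) and UBA6 (0.077). Their log2 fold changes were -0.83, -0.81, -0.84, -0.77 and -0.76. With 4 samples in 2 groups this likeness describes a fall of similar size.

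An earlier scan of these data had named 3 words of 7 bases in 3′ untranslated regions (UTRs), AGCTATT and GAAGCTA and also GCTATTA, and the 4 genes were searched for them on the transcript strand. The sites are shown with 10 bases on either side and the word in capitals.
AK4, first site: gtccaaattaGAAGCTAgctgaggtag
AK4, second site: cagtgaaattGAAGCTActtactcata
AK3: cataactgtgGCTATTActttgttctt
The AK4 sites began 79 and 482 bases into a 3′ UTR of 5968 bases, at chr1:65226246-65226272 and chr1:65226649-65226675 on the plus strand. The AK3 site lay at chr9:4711256-4711282 on the minus strand, in a 3′ UTR of 3417 bases. AK1 and AK6, with 3′ UTRs of 1528 and 1077 bases, held none of the words. At least 1 of them was held by 22.1% of 11680 tested genes. Among genes with a 3′ UTR about as long as that of AK4 the share was 59.8%, and for the length of AK3 it was 40.1%. The words came from these same data, so a match in AK4 is not independent of them. A match is a description of the sequence, and its part in any change was not tested.

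Around the adenylate kinases, 50 genes of 7 lists were tested and 6 passed the test, 2 of them higher and 4 lower, which was 12% against 11.5% of all genes. In DESeq2 4 of the 50 passed, and 3 with the replicate block. None of the 6 passed edgeR's test without vector replicate 2, a fit that leaves 1 sample in that group. None was called in edgeR, where 2.88% of all genes were, or in DESeq2. In edgeR 16 had an unadjusted p under 0.05. The share of all genes was not counted for that threshold, for DESeq2 or for the block, so these counts cannot be read as an excess. Among the other nucleotide kinases (10 tested), GUK1, guanylate kinase, was higher (log2 fold change 0.30, adjusted p = 0.0388) and CMPK1, the UMP/CMP kinase, was lower (-0.33, 0.00879). GUK1 did not pass in DESeq2 (0.104) or with the replicate block (0.157), and CMPK1 did not pass with the block (0.0539). CMPK2, a mitochondrial kinase of this list, was at 0.33 (0.288). Of 3 creatine kinases tested none passed, with CKB at 0.05 (0.926), CKMT2 at -0.24 (0.573) and CKMT1B at 0.50 (0.0525). CKMT1B has a near-identical copy with which its reads may be divided.

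Among the 14 tested genes of AMP synthesis and breakdown, 1 rose and 1 fell, where 4.94% and 6.54% of all genes did. Log2 fold changes were above 0 in 7 and below 0 in 7, with a median of 0.008. NT5E, the cell-surface enzyme that turns AMP into adenosine, was at 6.60 and 6.13 FPKM in vector and at 9.30 and 8.56 FPKM in shCHD7_2 (log2 fold change 0.44, adjusted p = 0.00504). ADK, adenosine kinase, which makes AMP from adenosine, was at 26.7 and 29.1 FPKM in vector and at 20.95 and 21.84 FPKM in shCHD7_2 (-0.42, 0.00292). Neither reached 1.5-fold, and ADSSL1, an adenylosuccinate synthase, was at 0.36 (0.518). Both NT5E and ADK passed in DESeq2 and with the replicate block, and each went over 0.05 in 3 of 14 settings. None of 7 tested mitochondrial adenine nucleotide carriers passed the test, and their log2 fold changes ran from -0.17 for SLC25A5 to 0.24 for SLC25A42, with SLC25A4 at 0.14.

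None of the 5 tested AMPK subunits passed the test, where 11.5% of all genes did. Their log2 fold changes were below 0 in 4 and above 0 in 1, with a median of -0.13. Of all genes tested, 49.9% were below 0. PRKAA1, a catalytic subunit, had a log2 fold change of -0.18 (adjusted p = 0.161), and PRKAB1 (-0.18, 0.401) and PRKAG1 (-0.13, 0.290) were of similar size. Of 8 upstream kinases and cofactors 2 fell, where 6.54% of all genes did, STRADB, a pseudokinase partner of LKB1 (-0.42, 0.0026), and CAMKK1, a calcium-dependent kinase (-0.40, 0.0274). CAMKK1 did not pass in DESeq2 (0.163), with the replicate block (0.0820) or in 7 other settings of 14, and STRADB went over 0.05 in 3. STRADA, the paralogue of STRADB, was at 0.21 (0.163). In this list of 8, log2 fold changes were below 0 in 7 and above 0 in 1, with a median of -0.11. These are transcript levels, and the phosphorylation that sets AMPK activity was not measured by them.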

How the data were processed

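The authors deposited estimated counts and FPKM values per gene for 4 RNA-seq samples, 2 vector and 2 shCHD7_2. Their processing notes name Bowtie2, RSEM, DESeq2 and hg38. The annotation and the library's strand setting are not given in the sources used here. RSEM divides reads among genes they match, so overlapping and near-identical genes are uncertain, and FPKM divides by an isoform-weighted length.

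The estimated counts were rounded and fitted as a whole table in R 4.3.3 with edgeR 4.0.16 (filterByExpr, TMM, quasi-likelihood test, Benjamini-Hochberg adjustment), without a block. CPM used TMM-scaled library sizes. Intervals cover the spread between samples. Samples were grouped by their labels. The tests were tried on simulated counts. Locations and sequences came from GENCODE 29 on GRCh38, and motifs were searched in the longest coding sequence or 3′ UTR. Alternatives were other scaling, filters, DESeq2 1.42.0, limma 3.58.1 on FPKM with a pseudocount of 1 or 0.1, a replicate block and leaving out each sample. The members and lists were chosen with earlier results of these data known, AK4 among them. The value of 1 listed gene is not reported here, and it is left out of the list counts. Named were the 4 genes, CHD7, all called genes of a list and up to 3 others of largest change, overlapping genes, 3 tested neighbours on each side of AK4 and the 5 genes most like it. AK5, BNIP3, EGLN3, PFKFB3 and the named cell markers without a test were added after their values were seen. The values of replicates differed by more than counting noise, with a chi-square per gene of 3.96 in vector and 6.05 in shCHD7_2.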

Additional observations from a re-analysis of the deposited data

How the results depend on the processing

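AK3 and AK6 kept their direction and stayed on the same side of the threshold in all 14 alternatives each, AK4 in 13 and AK1 in 8. Without a filter on low values, limma on log2(FPKM + 1) gave AK4 -0.75 (adjusted p = 0.0637) and AK1 0.36 (0.107), and edgeR without a filter gave AK1 0.32 (0.103). Leaving out each sample in turn gave log2 fold changes of 0.26 to 0.38 for AK1 and -0.92 to -0.75 for AK4. Same-numbered samples did not deviate alike, with a correlation of deviations of -0.198 over 11955 genes and -0.504 over the 8765 above 4 log2 CPM. With 2 samples a group this cannot show whether they were handled together. In edgeR with the replicate block AK1 was at 0.33 (adjusted p = 0.0951), AK4 at -0.83 and 329 genes were called. A crossed pairing, chosen after seeing the data, gave 423 called genes. The 344 genes called became 219 in DESeq2, 141 without a filter, 172 in limma on log2(FPKM + 1), 23 in limma without a filter, 1373 with no fold threshold and 308 to 380 without a sample. The summed FPKM of the 4 genes, 11.6% higher, was -8.43% as TMM-scaled CPM, where transcript length is not divided out. Scaling by library totals moved the median log2 fold change of all genes tested from 0.00056 to 0.045, and every list median rose too. Among them were 0.052 for AMP synthesis and breakdown, -0.061 for AMPK upstream kinases and -0.20 for HIF-1 targets. That of the other adenylate kinases went from -0.030 to 0.014. With no fold threshold the 7 lists held 6 genes. Otherwise the cause was not tested. With 2 samples a group, no permutation test over samples could go under 0.333.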

Other observations

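AK4 is known as a HIF-1 target gene, and the other genes of a list of 22 HIF-1 targets were examined. Of 20 tested, 19 had a log2 fold change below 0, where 49.9% of all genes tested did. As lower, 10 passed the test and 1 was called, against 6.54% and 1.37% of all genes tested. The list was written with earlier results of these data known, so the count is a description. CA9, carbonic anhydrase, was at 6.33 and 6.57 FPKM in vector and at 3.19 and 1.86 FPKM in shCHD7_2 (log2 fold change -1.39, adjusted p = 5.6e-05 in edgeR), and went over 0.05 in 2 of 14 other settings, both without a filter. PFKFB4, a regulator of glycolysis, was at 17.8 and 17.9 FPKM in vector and at 12.0 and 12.7 FPKM in shCHD7_2 (-0.56). P4HA1, a collagen prolyl hydroxylase, was at 31.8 and 32.0 FPKM in vector and at 23.8 and 21.5 FPKM in shCHD7_2 (-0.54), and NDRG1 was at -0.36. The list median was -0.24, and 8 of the genes passed in DESeq2 and 6 with the replicate block. PFKFB3, at 0.04, was the exception in direction, and BNIP3 and EGLN3 had too few counts to be tested. The labels name no low-oxygen culture, and HIF-1 protein was not analysed here.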
